A study of Mus musculus with 9 samples.

Results

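Interferon-stimulated genes are the genes that cells switch on when an interferon reaches them. A list of 48 of them was followed in mouse liver, taken by symbol. The list was drawn up with earlier results of these data known. The array's annotation held 45 of the 48 symbols, each with 1 transcript cluster, among 22206 clusters and 19505 distinct symbols in all. *Ifi47*, *Gbp6* and *Ifi44* were not analysed here.

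The samples were livers of male mice, 6 weeks old at purchase, 3 mice and 3 arrays in each of 3 groups. The first group was C57BL/6JHamSlc-ob/ob mice given 100 mg/kg of VE, an extract of *Vigna umbellata*, by oral gavage for 42 days. The second was C57BL/6JHamSlc-ob/ob mice given vehicle, and the third was wild-type C57BL/6JHamSlc-+/+ mice given vehicle, both for the same 42 days. All 3 groups ate standard chow. The ob/ob mutation removes functional leptin, the fat-cell hormone that limits food intake, from the whole animal from birth, so differences between ob/ob and wild-type mice carry obesity and fatty liver as well as the missing hormone. Each array was taken as 1 mouse, and p-values measure the spread between these arrays.

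Type I interferons bind the receptor IFNAR1/IFNAR2, whose JAK1 and TYK2 kinases phosphorylate STAT2. It joins IRF9 in a complex that binds the interferon-stimulated response element, ISRE, in promoters of genes such as *Isg15* and the *Ifit* family. Interferon gamma acts through IFNGR1/IFNGR2 on gamma-activated sites, GAS, and through the transcription factor IRF1, and drives the immunity-related GTPases, the guanylate-binding proteins and the chemokine *Cxcl9*. In liver the sources and responders include hepatocytes, Kupffer cells (the resident macrophages), endothelial cells and lymphocytes, and in whole-liver RNA fewer cells of a type and less RNA per cell cannot be told apart.

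Promoters of 6 of the genes are shown because they carry these elements in different arrangements and because most of the 6 recur in the results. Each line gives the 160 bases before the transcription start, 5′ to 3′ on the gene's own strand, from RefSeq on GRCm38.p6. Capitals mark matches to the ISRE core (GAAA, any 2 bases, GAAA) or to GAS (TTC, any 3 bases, GAA), searched on both strands. Neighbouring ISRE cores can overlap and then read as 1 run.
*Isg15*: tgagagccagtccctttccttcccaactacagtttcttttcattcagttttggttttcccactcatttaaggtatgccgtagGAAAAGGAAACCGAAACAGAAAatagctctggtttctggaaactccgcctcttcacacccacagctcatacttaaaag
*Ifit3*: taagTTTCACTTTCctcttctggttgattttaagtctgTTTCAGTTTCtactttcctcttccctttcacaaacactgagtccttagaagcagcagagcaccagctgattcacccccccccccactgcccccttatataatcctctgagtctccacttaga
*Irgm1*: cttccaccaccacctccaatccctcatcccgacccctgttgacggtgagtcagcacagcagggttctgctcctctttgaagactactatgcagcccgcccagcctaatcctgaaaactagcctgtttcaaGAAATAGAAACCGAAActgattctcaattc
*Igtp*: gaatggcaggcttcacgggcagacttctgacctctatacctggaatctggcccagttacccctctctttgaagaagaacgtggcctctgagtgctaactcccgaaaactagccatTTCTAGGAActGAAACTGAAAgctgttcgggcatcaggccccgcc
*Irgm2*: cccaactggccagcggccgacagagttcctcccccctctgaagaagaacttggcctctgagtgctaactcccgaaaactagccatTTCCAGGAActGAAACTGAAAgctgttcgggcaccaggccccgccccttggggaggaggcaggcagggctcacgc
*Irf1*: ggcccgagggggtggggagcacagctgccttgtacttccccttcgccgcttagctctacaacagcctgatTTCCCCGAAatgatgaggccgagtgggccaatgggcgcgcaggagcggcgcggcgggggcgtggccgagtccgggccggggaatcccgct
The windows lie at chr4:156200819-156200978 on the minus strand for *Isg15*, chr19:34583369-34583528 on the plus strand for *Ifit3*, chr11:48871421-48871580 on the minus strand for *Irgm1*, chr11:58199396-58199555 on the plus strand for *Igtp*, chr11:58214817-58214976 on the plus strand for *Irgm2* and chr11:53769854-53770013 on the plus strand for *Irf1*. *Isg15* held 3 overlapping ISRE cores, *Ifit3* held 2 separate ones on the opposite strand, and *Irgm1* held 2 overlapping ones. *Igtp* and *Irgm2*, both on chromosome 11, each held a GAS match followed after 2 bases by an ISRE core, and with the windows shifted by 30 bases 107 of 130 bases (82.3%) were equal. *Irf1* held a GAS match and no ISRE core.

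RefSeq promoters were found for 36 of the 45 genes. Over the 250 bases before the start, 17 of the 36 (47.2%) held the ISRE core, against 936 of 27025 genes with a promoter (3.46%). The GAS letters were in 10 of the 36 (27.8%), against 2197 of all 27025 (8.13%). A match is a description of the letters in this window and not a binding site.

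Values are deposited log2 intensities. To judge which genes stood clear of background, each array's own 1091 olfactory receptor genes, which liver largely does not express, served as a yardstick. The upper end of their middle 95% lay between 5.33 and 6.62 log2, highest on ob/ob vehicle 3 (6.44) and wild-type vehicle 3 (6.62). Of the 45 genes, 16 were above it on all 9 arrays, 14 on some and 15 on none. The 15 included *Isg15*, *Ifit1*, *Ifit2*, *Rsad2*, *Cxcl10*, *Gbp2*, *Mx1* and all 6 oligoadenylate synthetase genes, which were thus not separated from background in these livers. Ob/ob vehicle 3 and wild-type vehicle 3 also stood apart over all clusters, correlating with their own groups at 0.948 to 0.955 against at least 0.980 for the other pairs. As a check of tissue, 10 of 10 hepatocyte markers were above the olfactory range on all 9 arrays. *Lep* was at 2.64, 2.58 and 2.90 in ob/ob extract livers, at 2.92, 2.85 and 3.16 in ob/ob vehicle livers and at 2.95, 2.58 and 3.67 in wild-type livers, and since liver does not normally express it this does not check the genotype.

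Across the 45 genes the highest values fell most often on 1 wild-type mouse. Wild-type vehicle 2 held the highest of the 9 values for 23 of the 45 genes (51.1%), against 12.7% of all clusters, and 40 of the 45 were above their own 9-array mean on it. The extract arrays held the highest value for 1, 0 and 0 of the 45 genes. The genes' median deviation from their own mean was −0.08, −0.21 and −0.34 log2 on the extract arrays, −0.17, −0.01 and 0.13 on the ob/ob vehicle arrays, and 0.08, 0.47 and −0.14 on the wild-type arrays. The median over all clusters stayed within −0.05 and 0.01 on every array.

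**Figure D1:**
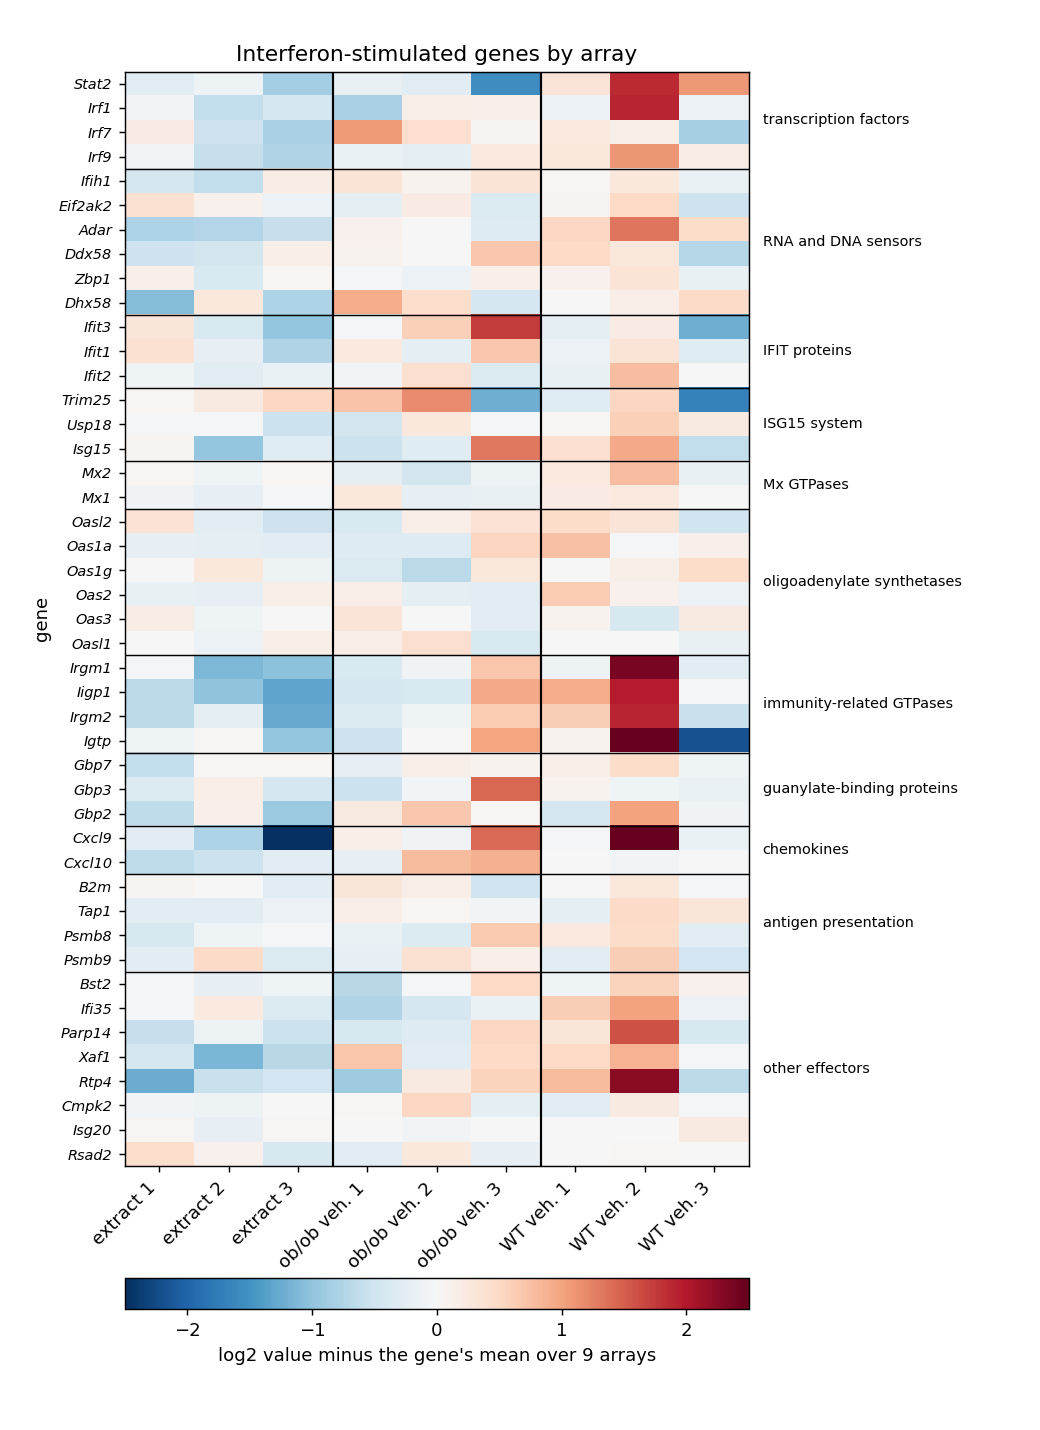
Each row is 1 of the 45 interferon-stimulated genes and each column 1 array (extract, ob/ob vehicle and wild-type vehicle mice 1 to 3), coloured by the deposited log2 value minus the gene's mean over the 9 arrays, with the colour scale ending at 2.5 in either direction. Wild-type vehicle 2 is the reddest column, most of all in the immunity-related GTPases, and the extract columns are mostly blue.

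The widest leads on that mouse were in immunity-related GTPases, *Irf1*, *Rtp4* and *Cxcl9*. The immunity-related GTPases, which attack vacuoles holding intracellular pathogens, had a median deviation of 2.17 log2 on wild-type vehicle 2 and of 0.82 on ob/ob vehicle 3. *Irgm1*, a regulator of this family, was at 12.39 on wild-type vehicle 2, 1.69 above the next array, and *Igtp* was at 9.75, 1.68 above the next; the next array was ob/ob vehicle 3 for both. *Irf1*, the transcription factor, was at 10.17, 1.76 above ob/ob vehicle 2. *Rtp4*, a chaperone of G protein-coupled receptors induced by type I interferon, was at 7.72, 1.46 above wild-type vehicle 1. *Irgm2* was 1.27 and *Cxcl9*, a chemokine that attracts activated T cells, was 1.09 above the next array, again ob/ob vehicle 3. *Irf1*, *Igtp*, *Irgm2* and *Rtp4* are named here after their values were seen.

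**Figure D2:**
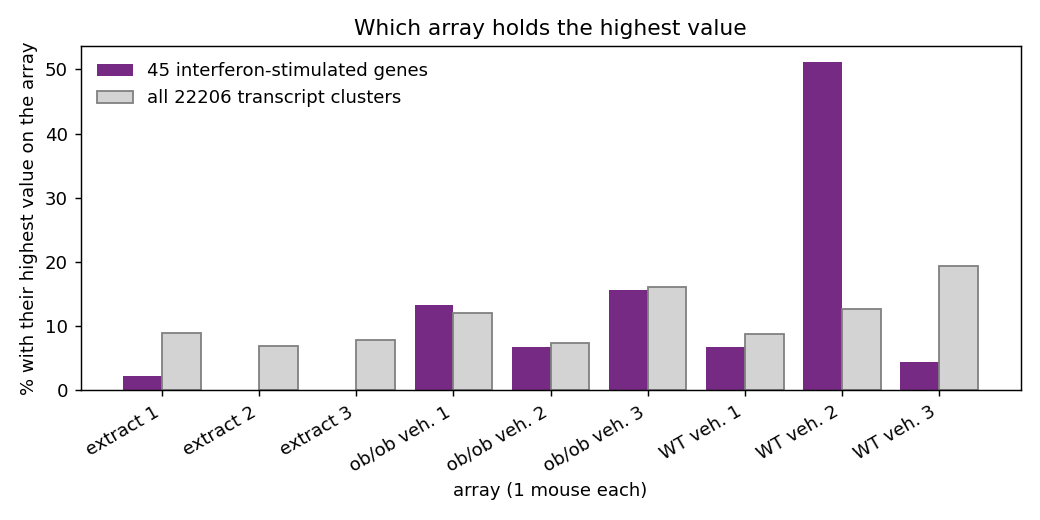
The bars give, for each array, the percentage of the 45 interferon-stimulated genes (purple) and of all 22206 transcript clusters (grey) whose highest of 9 values fell on it. Wild-type vehicle 2 held 51.1% of the genes against 12.7% of all clusters, and extract 2 and 3 held none.

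The same mouse was high for many other genes of the pathway. Of 114 further genes measured, 29 (25.4%) had their highest value on it, against 12.7% of all clusters. *H2-Ab1*, an MHC class II chain, is not among the 114 and is counted here as a dendritic cell marker. It was at 7.52, 7.19 and 6.75 in extract livers, at 7.12, 6.67 and 6.44 in ob/ob vehicle livers and at 7.74, 9.75 and 7.70 in wild-type livers. *Tgtp2*, a T cell-specific GTPase gene of the immunity-related family, was at 4.78, 3.82 and 4.20 in extract livers, at 4.55, 4.88 and 7.62 in ob/ob vehicle livers and at 6.13, 8.25 and 5.40 in wild-type livers. Both are named after their values were seen, and *Tgtp2* repeats the pattern of a high wild-type vehicle 2 followed by ob/ob vehicle 3.

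Markers of other cells on wild-type vehicle 2 were as follows. Kupffer cell markers deviated from their own means by a median of 0.25 log2, T and NK cell markers by 0.18, conventional dendritic cell markers by 0.24, sinusoidal endothelial markers by 0.18 and B cell markers by 0.10. Plasmacytoid dendritic cell markers, among them *Bst2*, deviated by 0.55 and hepatocyte markers by 0.53, while neutrophil and monocyte markers deviated by −0.35. On wild-type vehicle 1 and 3 hepatocyte markers deviated by 0.37 and 0.27, T and NK cell markers by 0.09 and 0.11. The values there were 0.12 and −0.21 for B cell, 0.12 and −0.34 for Kupffer cell and 0.12 and −0.18 for endothelial markers. They were −0.10 and 0.11 for plasmacytoid and −0.05 and 0.01 for conventional dendritic cell markers, and −0.25 and 0.15 for neutrophil and monocyte markers. Of 11 T and NK cell markers 10 were above the olfactory range on no array, as were 5 of 5 B cell markers. The same held for 6 of 7 conventional dendritic cell markers and 6 of 7 neutrophil and monocyte markers. The part of these cells in the pattern was not tested.

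The first comparison set ob/ob vehicle against wild-type vehicle livers. None of the 45 genes passed limma's moderated test at the threshold of 0.05 after Benjamini-Hochberg adjustment, which called 2.96% of all clusters, 2.28% higher and 0.68% lower. At an unadjusted p under 0.05, 1 gene was higher (*Ifit3*) and 3 were lower (*Stat2*, *Adar* and *Ifi35*), against 10.3% and 6.72% of all clusters. The same 3 lower genes were the only ones of the 45 whose groups did not overlap, where 9.78% of all clusters had every ob/ob value below and 9.71% every one above. The difference was below 0 for 31 of 45, with a median of −0.14 log2, beside 55.7% and −0.06 over all clusters. Without wild-type vehicle 2 the 45 genes' median was 0.03, so the sign of that median rested on 1 mouse. In the same comparison 8 of 10 hepatocyte markers had a difference below 0 (median −0.62), 5 of them lower at an unadjusted p under 0.05, and 3 of 11 Kupffer cell markers were higher at that p, with 0 of either list called by limma after adjustment. The part of these cells in the differences was not tested.

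*Stat2*, the signal transducer specific to type I and III interferons, was at 8.48, 8.39 and 7.12 log2 in ob/ob vehicle livers, against 8.99, 10.54 and 9.76 in wild-type livers. Every ob/ob value lay under every wild-type value, and ob/ob vehicle 3 was the lowest of all 9 arrays. The difference was −1.77 (SE 0.46, 95% interval −2.78 to −0.75) with a limma Benjamini-Hochberg adjusted p of 0.0741. Over the fits without 1 array the difference ran from −2.15 to −1.33 and the adjusted p from 0.0380 to 0.229, under the threshold only without wild-type vehicle 1.

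The other transcription factors did not separate the groups. *Irf9*, the DNA-binding partner of STAT2, was at 5.83, 5.75 and 6.23 in ob/ob vehicle livers and at 6.27, 7.10 and 6.19 in wild-type livers (difference −0.58, 95% interval −1.28 to 0.11). *Irf1* was at 7.45, 8.41 and 8.39 in ob/ob vehicle livers and at 8.12, 10.17 and 8.11 in wild-type livers, which overlap. *Irf7*, the amplifier of interferon alpha production, was at 7.10, 6.45 and 6.10 in ob/ob vehicle livers and at 6.29, 6.19 and 5.20 in wild-type livers, which also overlap (difference 0.66, 95% interval −0.22 to 1.53). Between mice of the same number, which the labels do not state to be pairs, ob/ob vehicle was higher by 0.81, 0.26 and 0.90. In a limma fit of all 9 arrays with the replicate number as a block, the adjusted p was 0.236. Such differences changed sign for most of the interferon-stimulated genes, as for *Igtp* (−0.60, −2.66 and 3.16) and *Irgm1* (−0.27, −2.47 and 0.97).

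Among the sensors, *Adar*, the RNA editor that marks self double-stranded RNA and has an interferon-inducible long form and a constitutive short form that the array value does not separate, was at 7.99, 7.87 and 7.56 in ob/ob vehicle livers, against 8.40, 9.23 and 8.35 in wild-type livers. All ob/ob values were under all wild-type values, by a mean difference of −0.85 (SE 0.28, 95% interval −1.48 to −0.23; limma Benjamini-Hochberg adjusted p = 0.147). *Ifih1*, which encodes the RNA sensor MDA5, was at 9.28, 9.02 and 9.27 in ob/ob vehicle livers and at 8.96, 9.20 and 8.76 in wild-type livers (difference 0.22, 95% interval −0.38 to 0.81). The remaining sensors, *Ddx58*, *Dhx58*, *Zbp1* and *Eif2ak2*, had differences between −0.15 and 0.23 with overlapping groups.

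The effectors went in both directions. *Ifit3*, which with *Ifit1* sequesters viral RNA and may share probes with its near-identical copy *Ifit3b*, was at 7.31, 7.95 and 9.11 in ob/ob vehicle livers and at 7.10, 7.56 and 6.14 in wild-type livers. The groups overlap, and the difference of 1.19 (SE 0.52, 95% interval 0.04 to 2.34) had a limma Benjamini-Hochberg adjusted p of 0.274. *Ifi35*, an interferon-induced leucine zipper protein, was at 6.73, 7.06 and 7.31 in ob/ob vehicle livers, against 8.09, 8.49 and 7.34 in wild-type livers. The groups just failed to overlap, and the difference was −0.94 (SE 0.33, 95% interval −1.66 to −0.22; limma Benjamini-Hochberg adjusted p = 0.165). *Mx2*, a dynamin-like antiviral GTPase, was at 6.70, 6.48 and 6.80 in ob/ob vehicle livers and at 7.18, 7.71 and 6.74 in wild-type livers, overlapping at the wild-type minimum (difference −0.55, 95% interval −1.16 to 0.06).

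*Trim25*, the ubiquitin and ISG15 ligase that activates RIG-I, was at 10.28, 10.75 and 8.34 in ob/ob vehicle livers and at 9.26, 10.09 and 7.87 in wild-type livers. Mouse 3 was the lowest of each group, and the groups overlap, with a difference of 0.72 (95% interval −0.71 to 2.15). Between mice of the same number ob/ob vehicle was higher by 1.02, 0.66 and 0.47. The adjusted p was 0.517 in the limma fit of all 9 arrays with the replicate number as a block. *Bst2*, tetherin, which holds budding virus on the cell surface, was at 8.17, 8.84 and 9.37 in ob/ob vehicle livers and at 8.77, 9.42 and 8.98 in wild-type livers (difference −0.26, 95% interval −0.97 to 0.44).

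The second comparison set ob/ob extract against ob/ob vehicle livers, and none of the 45 genes passed limma's test with Benjamini-Hochberg adjustment, which called 0.0% of all clusters. At an unadjusted p under 0.05, 0 of the 45 were higher and 3 were lower (*Cxcl10*, *Xaf1* and *Irf7*), against 3.56% and 2.9% of all clusters. Differences lay below 0 for 36 of 45, with a median of −0.21 log2, beside 51.5% and −0.01 over all clusters. They were below 0 for 17 of the 21 genes whose mean lay within the olfactory range (median −0.187). Of the 24 genes with a mean above it, 19 were below 0 (median −0.315). The shift was thus as common among genes not separated from background. In 6 genes (*Adar*, *Iigp1*, *Cxcl9*, *Cxcl10*, *Tap1* and *Xaf1*) every extract value lay under every ob/ob vehicle value, and in 1 (*Mx2*) above, against 6.08% and 7.47% of all clusters. This comparison and the first share the ob/ob vehicle arrays.

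The chemokines had low extract values. *Cxcl9* was at 8.37, 7.86 and 5.89 in extract livers, against 8.80, 8.55 and 10.05 in ob/ob vehicle livers. The groups did not overlap, and extract 3 was the lowest and ob/ob vehicle 3 the highest of the 6 values. The difference of −1.76 (SE 0.80, 95% interval −3.52 to 0.00; limma Benjamini-Hochberg adjusted p = 0.767) was −1.02 without extract 3. *Cxcl10*, which attracts the same T cells through CXCR3, was at 3.84, 3.94 and 4.20 in extract livers, against 4.27, 5.27 and 5.36 in ob/ob vehicle livers, a difference of −0.97 (SE 0.30, 95% interval −1.65 to −0.30; limma Benjamini-Hochberg adjusted p = 0.730). All 9 of its values lay within the olfactory range.

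*Iigp1*, an effector of the immunity-related GTPases, was at 8.0, 7.68 and 7.36 in extract livers, against 8.26, 8.31 and 9.63 in ob/ob vehicle livers. Its groups did not overlap (difference −1.05, SE 0.51, 95% interval −2.18 to 0.07; limma Benjamini-Hochberg adjusted p = 0.781), and without ob/ob vehicle 3 the difference was −0.60. *Irgm1* was at 9.96, 8.88 and 8.99 in extract livers and at 9.62, 9.92 and 10.70 in ob/ob vehicle livers, with extract 1 above the lower ob/ob vehicle values. All 4 measured genes of this family had differences below 0, from −1.05 to −0.52, beside 3 of 3 guanylate-binding protein genes, from −0.79 to −0.19. Without ob/ob vehicle 3 the difference of *Igtp* was −0.11 and that of *Gbp3* 0.09, and without extract 1 that of *Gbp7* was 0.03.

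*Xaf1*, a pro-apoptotic partner of XIAP, was at 5.19, 4.49 and 4.93 in extract livers, against 6.32, 5.35 and 6.13 in ob/ob vehicle livers, with no overlap. The difference was −1.06 (SE 0.34, 95% interval −1.82 to −0.30; limma Benjamini-Hochberg adjusted p = 0.740), and the extract values and those of ob/ob vehicle 2 and 3 lay within the olfactory range. *Irf7* was at 6.25, 5.52 and 5.23 in extract livers and at 7.10, 6.45 and 6.10 in ob/ob vehicle livers, overlapping by 1 value (difference −0.88, SE 0.39, 95% interval −1.76 to −0.01; limma Benjamini-Hochberg adjusted p = 0.767). *Ifit3* was at 7.66, 6.98 and 6.36 in extract livers and at 7.31, 7.95 and 9.11 in ob/ob vehicle livers (difference −1.12, 95% interval −2.27 to 0.02).

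*Adar* was at 7.12, 7.15 and 7.32 in extract livers, against 7.99, 7.87 and 7.56 in ob/ob vehicle livers, with no overlap (difference −0.61, SE 0.28, 95% interval −1.24 to 0.02; limma Benjamini-Hochberg adjusted p = 0.769). *Tap1*, 1 chain of the transporter that feeds peptides to MHC class I, was at 7.01, 7.01 and 7.15 in extract livers, against 7.45, 7.34 and 7.23 in ob/ob vehicle livers, also with no overlap (difference −0.28, 95% interval −0.83 to 0.26). Differences below −0.50 with overlapping groups were also measured for *Dhx58*, *Rtp4*, *Isg15*, *Ifih1* and *Ddx58* (−0.84, −0.73, −0.56, −0.55 and −0.52). *Mx2* was at 6.98, 6.83 and 6.98 in extract livers, against 6.70, 6.48 and 6.80 in ob/ob vehicle livers, with no overlap and a difference of 0.27 (95% interval −0.34 to 0.88). *Stat2* was at 8.39, 8.54 and 7.81 in extract livers and at 8.48, 8.39 and 7.12 in ob/ob vehicle livers (difference 0.25, 95% interval −0.77 to 1.27). *Bst2* was at 8.83, 8.66 and 8.77 in extract livers and at 8.17, 8.84 and 9.37 in ob/ob vehicle livers (difference −0.04, 95% interval −0.75 to 0.67). *B2m*, the light chain of MHC class I, was at 19.56, 19.48 and 19.20 in extract livers and at 19.78, 19.65 and 18.98 in ob/ob vehicle livers, near the array's highest deposited value of 19.93.

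Kupffer cell markers were also lower in extract livers by value. Of 11 measured, 10 had a difference below 0 (51.5% of all clusters), 4 were lower at an unadjusted p under 0.05 (2.9% of all clusters) and 0 after adjustment in limma's test. Their summed linear signal ran between 891 and 1584 in extract livers, against 2220 and 4820 in ob/ob vehicle livers. In wild-type livers it ran between 997 and 1827, which overlaps the extract range. Of the 11, 2 were above the olfactory range on all 9 arrays and 0 on none. Differences were below 0 for 8 of 9 sinusoidal endothelial, 7 of 9 plasmacytoid dendritic cell and 6 of 7 neutrophil and monocyte markers too. They were below 0 for 3 of 5 B cell, 5 of 11 T and NK cell, 2 of 7 conventional dendritic cell and 2 of 10 hepatocyte markers. Of the 7 neutrophil and monocyte markers, 6 were above the olfactory range on no array. The part of these cells in the interferon genes' values was not tested.

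**Figure D3:**
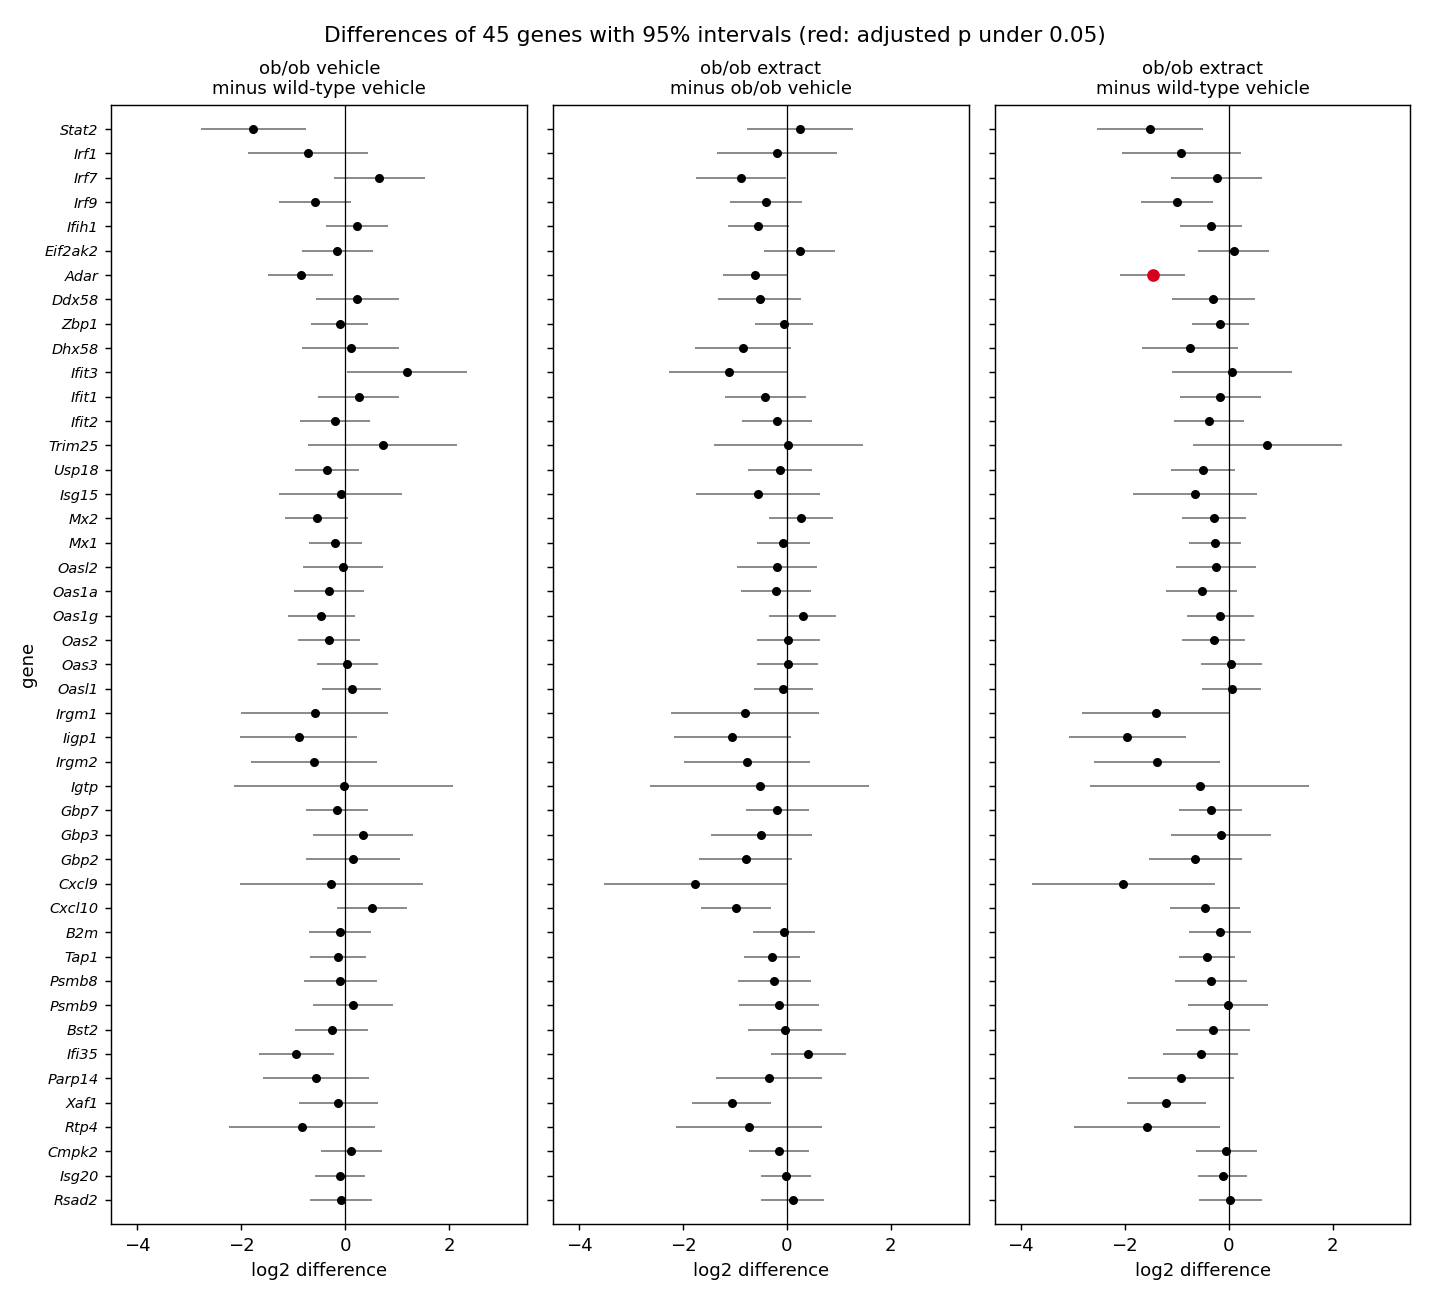
Points give the fitted log2 difference of each of the 45 genes in the 3 comparisons and bars the 95% intervals from limma, with red for an adjusted p under 0.05. Points lie left of 0 for 31, 36 and 39 of 45 genes (ob/ob vehicle minus wild type, extract minus ob/ob vehicle, extract minus wild type), and *Adar* in the last is the only red one.

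The third comparison set ob/ob extract against wild-type vehicle livers and shares arrays with both others. *Adar* fell, and it was the 1 of 45 genes that limma's test with Benjamini-Hochberg adjustment called, where it called 1.29% of all clusters, 0.977% higher and 0.315% lower. At an unadjusted p under 0.05, 0 were higher and 8 were lower (*Adar*, *Iigp1*, *Xaf1*, *Stat2*, *Irf9*, *Cxcl9*, *Irgm2* and *Rtp4*), against 8.21% and 5.82% of all clusters. Differences lay below 0 for 39 of 45, with a median of −0.34 log2, beside 54.1% and −0.05 over all clusters. They were below 0 for 18 of the 21 genes whose mean lay within the olfactory range and for 21 of the 24 above it. In 10 genes every extract value lay under every wild-type value, against 10.6% of all clusters, and in 0 above, against 11.1%. The 10 were *Adar*, *Iigp1*, *Xaf1*, *Stat2*, *Irf9*, *Cxcl9*, *Usp18*, *Cxcl10*, *Mx1* and *Oas1a*, the last 3 within the olfactory range on every array. Hepatocyte markers had a median difference of −0.56 in this comparison, with 6 of 10 below 0, and Kupffer cell markers one of −0.38, with 10 of 11 below 0, and their part was not tested.

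*Adar* was at 7.12, 7.15 and 7.32 log2 in extract livers (7.20 ± 0.11, SD, n = 3), against 8.40, 9.23 and 8.35 in wild-type livers (8.66 ± 0.49, SD, n = 3). The extract values were tight and the ob/ob vehicle values, 7.81 ± 0.22 (SD, n = 3), lay between both groups with no overlap. The difference of −1.46 (SE 0.28, 95% interval −2.09 to −0.84; limma Benjamini-Hochberg adjusted p = 0.0366) stood close to the threshold. Leaving out 1 array ended the call in 7 of 9 cases, with an adjusted p of 0.131, 0.177 and 0.104 without extract 1, 2 and 3, of 0.0581 and 0.0657 without ob/ob vehicle 1 and 2, and of 0.122 and 0.0535 without wild-type vehicle 2 and 3. It was also lost with array medians subtracted (0.0745) and with a trended, robust prior (0.0532), and the difference stayed between −1.70 and −1.18 in every fit.

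*Iigp1* was at 8.0, 7.68 and 7.36 in extract livers, against 9.61, 10.64 and 8.64 in wild-type livers. No extract value reached the wild-type values, and the difference was −1.95 (SE 0.51, 95% interval −3.08 to −0.82; limma Benjamini-Hochberg adjusted p = 0.112). It was −1.45 without wild-type vehicle 2, and its adjusted p was 0.0403 without ob/ob vehicle 3, an array that enters this comparison only through the shared spread. *Cxcl9* was at 8.37, 7.86 and 5.89 in extract livers, against 8.59, 11.14 and 8.47 in wild-type livers, with extract 1 just under the lowest wild-type value. Its difference of −2.03 (SE 0.80, 95% interval −3.79 to −0.26; limma Benjamini-Hochberg adjusted p = 0.284) was −1.16 without wild-type vehicle 2.

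The factors of the type I interferon complex were low in extract livers as well. *Stat2* was at 8.39, 8.54 and 7.81 in extract livers, against 8.99, 10.54 and 9.76 in wild-type livers (difference −1.52, SE 0.46, 95% interval −2.53 to −0.50; limma Benjamini-Hochberg adjusted p = 0.173). *Irf9* was at 5.93, 5.41 and 5.25 in extract livers, against 6.27, 7.10 and 6.19 in wild-type livers (difference −0.99, SE 0.31, 95% interval −1.68 to −0.30; limma Benjamini-Hochberg adjusted p = 0.188). Neither pair of groups overlapped and neither difference passed the test. *Xaf1* was at 5.19, 4.49 and 4.93 in extract livers, against 6.12, 6.50 and 5.59 in wild-type livers (difference −1.20, SE 0.34, 95% interval −1.96 to −0.44; limma Benjamini-Hochberg adjusted p = 0.146).

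**Figure D4:**
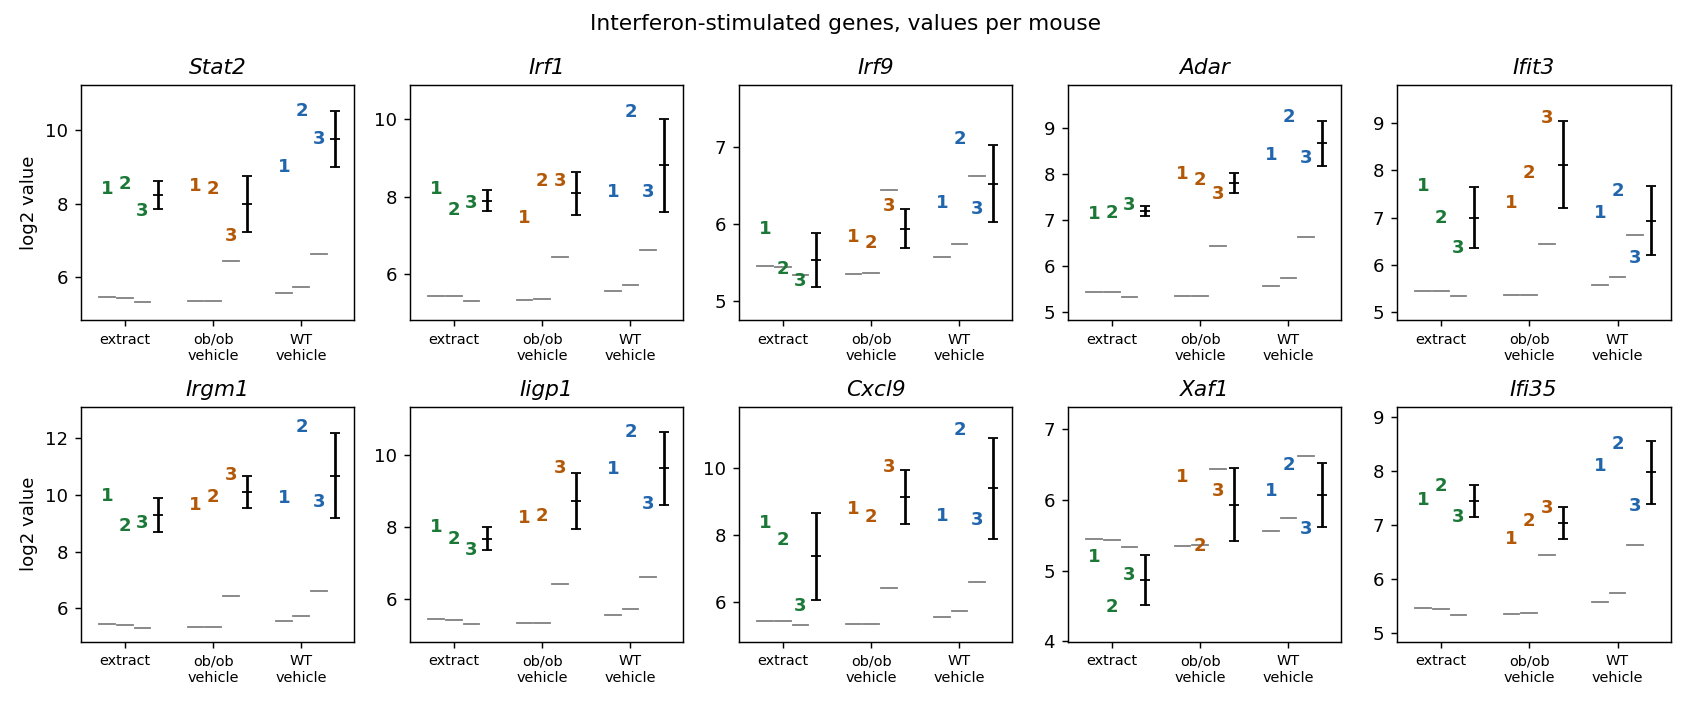
Digits mark the mouse number at its log2 value, in extract, ob/ob vehicle and wild-type vehicle livers from left to right, with the mean and SD beside each group (n = 3) and grey dashes for the upper end of each array's olfactory range. *Adar* is lowest in extract and highest in wild-type livers with no overlap, and wild-type mouse 2 is the highest point for *Irf1*, *Irgm1* and *Cxcl9*.

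Other families gave smaller differences, many of them within the olfactory range. The 6 oligoadenylate synthetase genes belong to a family with members that activate RNase L. Their differences lay between −0.46 and 0.13 for ob/ob vehicle minus wild type and between −0.21 and 0.30 for extract minus ob/ob vehicle. For extract minus wild type they lay between −0.52 and 0.06. No array had any of the 6 genes above the olfactory range. *Oasl2* was at 5.17, 4.51 and 4.28 in extract livers, at 4.42, 4.96 and 5.17 in ob/ob vehicle livers and at 5.25, 5.13 and 4.31 in wild-type livers. *Oas1a* and *Oas1g* are near-identical, and their probes may share signal. *Mx1*, of which C57BL/6 mice carry a nonfunctional allele, was between 4.75 and 5.21 on all 9 arrays. The antigen presentation genes *Psmb8*, *Psmb9*, *Tap1* and *B2m*, the immunoproteasome, peptide transporter and MHC class I chain, had differences between −0.42 and 0.14 over the 3 comparisons. *Gbp7*, a guanylate-binding protein, was at 6.49, 7.14 and 7.15 in extract livers, at 6.89, 7.25 and 7.20 in ob/ob vehicle livers and at 7.25, 7.56 and 7.0 in wild-type livers.

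Further genes of the pathway were counted beside the list. Of 114 further pathway genes measured, 3 rose and 0 fell in ob/ob vehicle against wild-type livers by limma's test with Benjamini-Hochberg adjustment, 0 rose and 2 fell in extract against wild-type livers, and 0 passed in extract against ob/ob vehicle livers. Over all clusters 2.28% rose and 0.68% fell in ob/ob vehicle against wild-type livers, and 0.977% rose and 0.315% fell in extract against wild-type livers. In extract against ob/ob vehicle livers 4 of the 114 were higher and 10 lower at an unadjusted p under 0.05, beside 3.56% and 2.9% of all clusters.

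*Ifngr2*, the signalling chain of the interferon gamma receptor, rose in ob/ob vehicle livers, at 9.35, 9.55 and 9.36 log2, against 8.12, 7.73 and 6.93 in wild-type livers (difference 1.83, SE 0.32; limma Benjamini-Hochberg adjusted p = 0.0169). All ob/ob values were above all wild-type values. In extract livers it was at 8.67, 9.13 and 8.56, under all ob/ob vehicle values but not called (difference −0.63, 95% interval −1.34 to 0.07). The call against wild type was lost without ob/ob vehicle 1 (0.0608), without ob/ob vehicle 2 (0.0711), without wild-type mouse 2 (0.0652) and with only those 2 groups in the fit (0.0605). *Ifnar1*, 1 chain of the type I receptor, named after its values were seen, was at 8.66, 8.72 and 8.55 in ob/ob vehicle livers, against 7.82, 8.29 and 7.19 in wild-type livers, and did not pass (difference 0.88, limma Benjamini-Hochberg adjusted p = 0.147). Its partner chain *Ifnar2*, named likewise, went the other way. It was at 12.31, 12.75 and 12.70 against 13.41, 13.68 and 12.93, with no overlap (difference −0.75, limma Benjamini-Hochberg adjusted p = 0.1825). Of 6 receptor genes measured, 3 had a difference above 0 in this comparison and 3 below.

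*Samd9l*, an interferon-inducible restriction factor of poxviruses, rose to 10.05, 9.47 and 11.05 in ob/ob vehicle livers, against 8.43, 8.35 and 7.75 in wild-type livers (difference 2.01, SE 0.39; limma Benjamini-Hochberg adjusted p = 0.0266). All ob/ob values were above all wild-type values. In extract livers it was at 9.56, 8.97 and 9.0, partly within the ob/ob vehicle range (difference −1.01, 95% interval −1.88 to −0.14; limma Benjamini-Hochberg adjusted p = 0.765). Its call against wild type was lost with quantile normalization (0.0709), with only those 2 groups in the fit (0.0860) and without ob/ob vehicle 1 (0.0831), wild-type vehicle 2 (0.0844), wild-type vehicle 3 (0.0927) or extract 2 (0.0531).

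*Lgals3bp*, a secreted galectin-binding glycoprotein, rose in ob/ob vehicle livers, at 7.53, 7.43 and 7.44, against 6.01, 5.84 and 6.77 in wild-type livers (difference 1.26, SE 0.29; limma Benjamini-Hochberg adjusted p = 0.0452). In extract livers it was at 6.37, 6.66 and 6.12, within the wild-type range and under every ob/ob vehicle value. That second difference, −1.08 (SE 0.29, 95% interval −1.72 to −0.45), had an adjusted p of 0.707 by limma with Benjamini-Hochberg adjustment. The call against wild type held in only 2 of 9 fits without 1 array, those without ob/ob vehicle 3 and without wild-type vehicle 3, with an adjusted p between 0.0681 and 0.168 in the others. It was lost with the replicate number as a block (0.0760), with quantile normalization (0.0960), with a trended, robust prior (0.0577) and with only those 2 groups in the fit (0.124).

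Of the genes that fell in extract against wild-type livers, *Ifi27*, a mitochondrial and nuclear membrane protein induced by type I interferon, was at 6.41, 6.82 and 6.40 in extract livers, against 9.33, 9.57 and 8.13 in wild-type livers (difference −2.47, SE 0.49; limma Benjamini-Hochberg adjusted p = 0.0410). Ob/ob vehicle livers, at 8.60, 8.18 and 6.79, bridged the gap. *Ifitm3*, which blocks fusion of enveloped viruses in endosomes, was at 12.34, 11.49 and 12.29 in extract livers, against 14.12, 14.05 and 13.14 in wild-type livers (difference −1.73, SE 0.35; limma Benjamini-Hochberg adjusted p = 0.0424), with ob/ob vehicle at 12.70, 12.87 and 12.28. Both calls were lost without any 1 of the extract arrays (0.143 to 0.148 for *Ifi27*, 0.0967 to 0.201 for *Ifitm3*), without wild-type vehicle 1 (0.0853 and 0.0872), without wild-type vehicle 2 (0.167 for each), without ob/ob vehicle 2 (0.0648 and 0.0672) and with array medians subtracted (0.0703 and 0.0815). The call of *Ifitm3* was also lost without ob/ob vehicle 1 (0.0690), with a trended, robust prior (0.0656) and with only those 2 groups in the fit (0.0524).

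**Figure D5:**
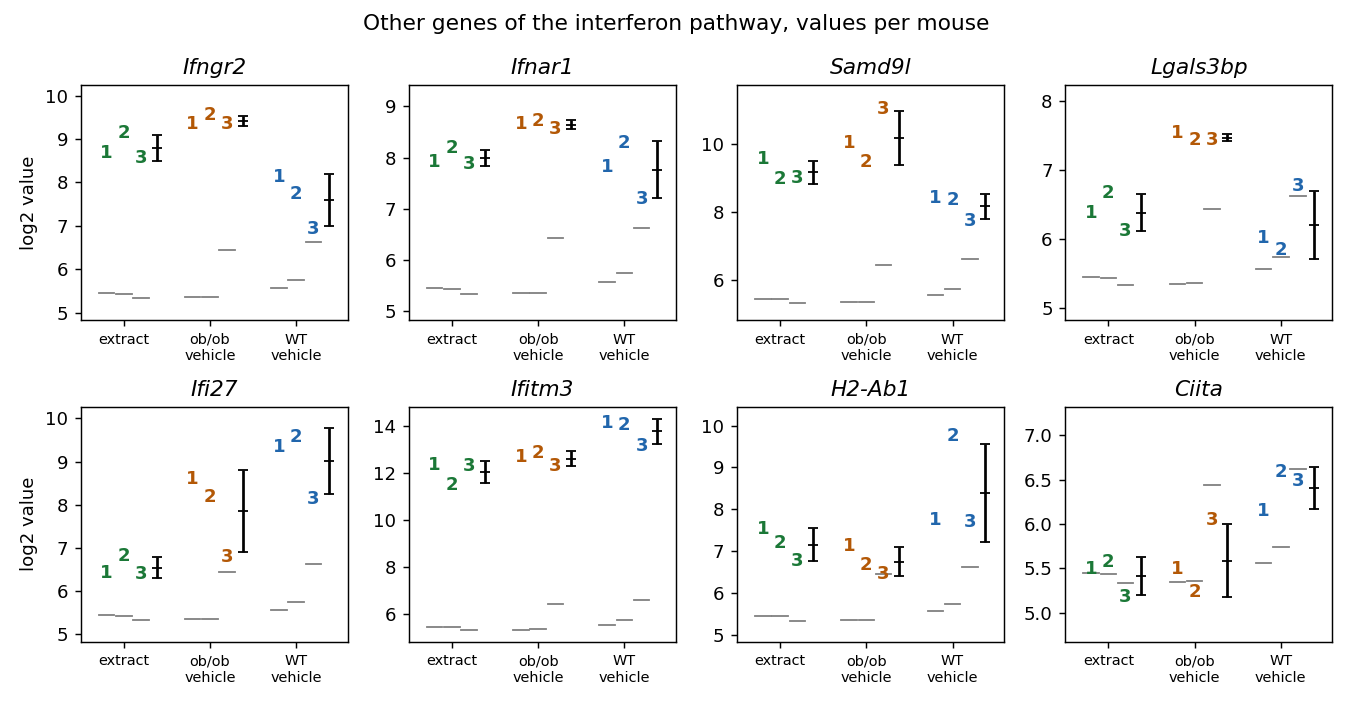
Other genes of the interferon pathway and the dendritic cell marker *H2-Ab1*, drawn as in the plot of values per mouse. Digits give mouse numbers, with mean and SD beside each group (n = 3) and grey dashes for the olfactory range. *Ifngr2*, *Samd9l* and *Lgals3bp* are highest in ob/ob vehicle livers, and *Ifi27* and *Ifitm3* have their lowest means in extract livers.

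*Ciita*, the master regulator of MHC class II, also named after its values were seen, was at 5.49, 5.57 and 5.17 in extract livers, at 5.49, 5.23 and 6.04 in ob/ob vehicle livers and at 6.14, 6.59 and 6.48 in wild-type livers. Extract and wild-type values did not overlap, nor did ob/ob vehicle and wild-type values, and neither difference was called (−0.99 and −0.82; limma Benjamini-Hochberg adjusted p of 0.134 and 0.153).

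The interferon genes themselves gave no call. Of 19 ligand genes measured, 0 passed limma's adjusted test in any comparison, and at an unadjusted p under 0.05 there were 0 in ob/ob vehicle against wild-type livers, 2 higher and 1 lower in extract against ob/ob vehicle livers (3.56% and 2.9% of all clusters) and 4 lower in extract against wild-type livers (5.82% of all clusters). *Ifng*, named after its values were seen, was at 4.77, 4.75 and 4.86 in extract livers, at 3.79, 3.82 and 4.31 in ob/ob vehicle livers and at 3.96, 4.98 and 4.79 in wild-type livers, within the olfactory range on all 9 arrays. *Ifna5*, an interferon alpha gene that may share probes with its close relatives, was at 6.54, 6.82 and 6.62 in extract livers, at 7.01, 7.0 and 7.37 in ob/ob vehicle livers and at 7.55, 7.42 and 7.17 in wild-type livers (extract minus wild type −0.72, 95% interval −1.23 to −0.21; limma Benjamini-Hochberg adjusted p = 0.195). *Ifna6* was within the olfactory range throughout, at 4.24, 3.92 and 4.12 in extract livers, at 4.04, 4.18 and 4.90 in ob/ob vehicle livers and at 4.77, 4.73 and 5.14 in wild-type livers.

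Of 19 signal transducers and 12 negative regulators measured, 0 passed limma's adjusted test in any comparison. At an unadjusted p under 0.05 no list of the pair had more than 1 gene in a direction in any comparison, where 2.9% to 10.3% of all clusters passed. *Irf2*, which competes with IRF1 for the same element, was at 9.50, 9.66 and 8.49 in ob/ob vehicle livers, against 10.79, 10.33 and 10.27 in wild-type livers, with no overlap (difference −1.25, SE 0.34, 95% interval −2.01 to −0.49; limma Benjamini-Hochberg adjusted p = 0.0878). *Tlr3*, the endosomal sensor of double-stranded RNA, was at 7.98, 7.89 and 7.12 in ob/ob vehicle livers, against 6.36, 7.05 and 5.45 in wild-type livers, also with no overlap (difference 1.38, SE 0.40, 95% interval 0.49 to 2.27; limma Benjamini-Hochberg adjusted p = 0.105). *Ptpn2*, a phosphatase of JAK1, was at 8.35, 7.70 and 8.42 in extract livers and at 7.10, 7.27 and 7.87 in ob/ob vehicle livers, overlapping by 1 value (difference 0.74, 95% interval 0.03 to 1.46; limma Benjamini-Hochberg adjusted p = 0.767). *Nlrc3*, a brake on STING signalling, was between 4.24 and 5.25 on all 9 arrays, within the olfactory range.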

How the data were processed

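Liver RNA of 9 mice was hybridised to Clariom S mouse arrays, 1 array per mouse. Deposited by the authors were log2 values, 1 for each transcript cluster and array, made with Transcriptome Analysis Console 4 and SST-RMA, a robust multi-chip average, per the submitters' processing notes and the design text. SST-RMA stretches differences, so their size depends on it. The values were used as deposited. The array's genome build is not given in the sources used here, and detection calls were not used here. Symbols came from the platform annotation.

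Groups followed the labels. limma 3.58.1 in R 4.3.3 fitted a mean per group over all 9 arrays (6 residual and 4.45 prior degrees of freedom) and 3 contrasts, with Benjamini-Hochberg adjustment over 22206 clusters and a threshold of 0.05. The design text instead asks for p under 0.05 without adjustment and more than 1.1-fold change. The genes and lists were chosen with earlier results of these data known. Named are genes called in any comparison, the 6 smallest p per comparison, the gene with the highest mean of each role, and from each of the 5 other pathway lists up to 4 called genes or else the 2 with the smallest p; others are marked as chosen after their values were seen. The fit was tried on simulated data with independent normal spread in each cluster and few clusters changed. There it recovered 11.9%, 73.1% and 97.0% of changes of 1, 2 and 4 log2 for ob/ob vehicle against wild type. For extract against ob/ob vehicle it recovered 4.48%, 64.2% and 100%, and for extract against wild type 8.96%, 62.7% and 97.0%. Changes near 1 log2 were mostly missed in this simulation, whose rates need not hold for the real arrays. For arrays, the number of mice limits the precision. Same-numbered arrays deviated together between ob/ob vehicle and wild type (correlations of 0.256, 0.262 and 0.450). With extract the correlations ranged from −0.208 to 0.0157. The labels do not state pairs, and the main fit used none. Array 3 stood apart in both the ob/ob vehicle and the wild-type group, so pairing and a trait shared by those arrays cannot be told apart. Alternatives covered normalization, weights, the interquartile range as covariate, the prior, the samples fitted, dim-cluster filters, the replicate block and arrays left out.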

Additional observations from a re-analysis of the deposited data

How the results depend on the processing

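None of the 45 genes was called in ob/ob vehicle against wild-type livers, but lower calls appeared under other settings: 2 with quantile normalization (*Stat2* and *Adar*), 4 with array weights (these with *Ifi35* and *Iigp1*), 1 with each array's interquartile range as covariate and 1 after removing the 50% dimmest clusters (*Stat2* in both), 0 to 1 without single arrays, 3 without ob/ob vehicle 3 and wild-type vehicle 3 (*Ifi35*, *Rtp4* and *Iigp1*) and 3 by the design text's criterion. Higher calls numbered 1 by that criterion and 1 (*Trim25*, 1.95, adjusted p = 0.0376 by limma with Benjamini-Hochberg adjustment) without ob/ob vehicle 3 and wild-type vehicle 2, a setting chosen after seeing the data. In extract against ob/ob vehicle livers 3 lower calls appeared, by the design text's criterion alone. The 1 lower call in extract against wild-type livers became 0 with array medians subtracted, with a trended, robust prior, with the replicate block and without ob/ob vehicle 3 and wild-type vehicle 2; it became 5 with array weights (*Adar*, *Stat2*, *Xaf1*, *Irf9* and *Iigp1*), 5 without ob/ob vehicle 3 and wild-type vehicle 3 (*Adar*, *Xaf1*, *Irgm2*, *Rtp4* and *Iigp1*), 8 by the design text's criterion and 0 to 2 without single arrays (2, *Adar* and *Iigp1*, without ob/ob vehicle 3). Calls over all clusters moved too. Lower calls in ob/ob vehicle against wild-type livers numbered 151 in the main fit. They numbered 256 with quantile normalization, 615 with array weights and 312 with the interquartile range as covariate. Without ob/ob vehicle 3 and wild-type vehicle 3 they numbered 478. Lower calls in extract against wild-type livers numbered 70 in the main fit, 226 with array weights and 198 without those arrays. The causes were not tested. With the replicate number as a block, 0 of the 45 genes were called in either direction in ob/ob vehicle against wild-type livers too. Among the genes named as called there, the block changed the call of *Lgals3bp* alone. In extract against wild-type livers it ended the calls of *Adar* and *Ifitm3*. The genes' median difference ran from −0.30 to 0.03, −0.35 to −0.19 and −0.52 to −0.20 over the fits without 1 array, for ob/ob vehicle minus wild type, extract minus ob/ob vehicle and extract minus wild type; with array medians subtracted, which moved the median of all clusters to 0.06 and 0.09 in the comparisons with wild type, it was −0.02, −0.19 and −0.20. Over 30 named genes and 594 fits per comparison, 29, 23 and 12 uncalled differences changed sign, and no called one did. Quantile normalization moved the split of all calls to 290 higher and 256 lower, from 507 and 151, in ob/ob vehicle against wild type, and to 153 and 97, from 217 and 70, in extract against wild type. No gene had several clusters, so another choice of cluster gave no value.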
